A study of Homo sapiens with 8 samples.

Results

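The 10 genes described here are feedback genes of the mitogen-activated protein (MAP) kinase pathways in U87MG cells. They were picked by gene symbol from the 23368 genes listed for each library, by a rule that names symbols and uses no threshold on the values, although earlier results of these data were known when they were proposed. All 10 were found once and passed the filter on low counts. They are the dual-specificity phosphatase genes DUSP1, DUSP4, DUSP5 and DUSP6, the Sprouty genes SPRY2 and SPRY4, the Sprouty-related genes SPRED1 and SPRED2, and the immediate early genes PHLDA1 and IER3. In the GENCODE 29 annotation of GRCh38, DUSP1 and SPRY4 lie on chromosome 5, DUSP6 and PHLDA1 on 12, DUSP4 on 8, DUSP5 on 10, SPRY2 on 13, SPRED1 on 15, SPRED2 on 2 and IER3 on 6.

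RNA was sequenced from U87MG, an established human glioblastoma line grown in medium with serum. Cells were left untreated (control) or treated with enzalutamide, an androgen receptor antagonist, for 4, 24 or 48 h, with 2 libraries in each of the 4 groups. The labels give no dose, no vehicle and no harvest time for the untreated cells, so drug exposure and anything else that differed between the dishes cannot be told apart. The note on RNA extraction mentions a harvest after differentiation, with no further detail. All groups share the 1 cell line. Whether replicate libraries derive from different cultures is not stated, so the p-values reflect the spread among these libraries alone, and that spread may be technical.

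In the ERK cascade, growth factor receptors activate RAS, RAF and MEK kinases in turn, and MEK phosphorylates ERK. Active ERK induces, among its immediate targets, genes whose products switch the cascade off again. Dual-specificity phosphatases remove the activating phosphates from ERK, JNK or the other stress-activated MAP kinases, and differ in which kinase they prefer and whether they act in the nucleus or the cytoplasm. Sprouty and SPRED proteins act upstream, at the level of the receptor, RAS and RAF. In glioblastoma the pathway is commonly driven by altered receptor tyrosine kinases or by loss of the RAS inhibitor neurofibromin.

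Levels are given as CPM, counts scaled to a common library size. Total counts ranged from 24620833 to 37162565 per library, and the 48 h libraries had the lowest scaling factors, 0.870 and 0.899, against 1.02 to 1.08 in the other 6. Of 6 genes typical of mesenchymal glioma lines, VIM, FN1, CD44, TNC and SPARC were at 670 CPM or more in every library, and NES was at 10.9 to 43.3 CPM. The summed level of these 6 was 16300 to 17200 CPM in control, 13800 to 15100 CPM at 4 h, 17000 to 17300 CPM at 24 h and 24900 to 25900 CPM at 48 h. Of 9 markers of astrocytes, oligodendrocytes and neurons, 5 stayed under 1 CPM in all libraries, the astrocyte gene GFAP among them. The summed level of all 9 was 40.8 to 42.4 CPM in control, 42.8 to 47.2 CPM at 4 h, 47.6 to 50.1 CPM at 24 h and 25.4 to 26.7 CPM at 48 h. Most of that sum was SNAP25, a neuronal gene, with a mean of 15.5 CPM at 48 h, against a median of 31.6 CPM in control. Of 9 markers of immune, endothelial and epithelial cells, 8 stayed under 1 CPM throughout. The remaining gene, CD68, which encodes a lysosomal protein of macrophages, reached 1050 CPM; the summed level of these 9 was 659 to 713 CPM in control, 568 to 608 CPM at 4 h, 656 to 676 CPM at 24 h and 931 to 1050 CPM at 48 h. The part of these 3 marker lists in the results was not tested.

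The 10 genes followed no common course. By edgeR's quasi-likelihood test with Benjamini-Hochberg adjustment, 6 were higher and none lower at 4 h than in control, where 28.6% of all 14448 tested genes were called, 15.0% as higher and 13.6% as lower. The 4 others had unadjusted and adjusted p above 0.05, and DESeq2 and limma-voom also called none lower. At 24 h, 4 were higher and 1 lower, against 22.3% of all genes called (12.9% higher, 9.39% lower). At 48 h all 10 were called, 4 higher and 6 lower, but 66.9% of all genes were called at that time (33.3% higher, 33.5% lower), so being called is common at that time. Their median absolute log2 change was 0.69 at 4 h, 0.23 at 24 h and 0.96 at 48 h, beside 0.22, 0.19 and 0.52 over all tested genes. The libraries of the treated group and of control did not overlap for 10 of 10 genes at 4 h, where this held for 68.6% of all tested genes, for 6 of 10 at 24 h (66.2%) and for 10 of 10 at 48 h (82.0%).

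**Figure D1:**
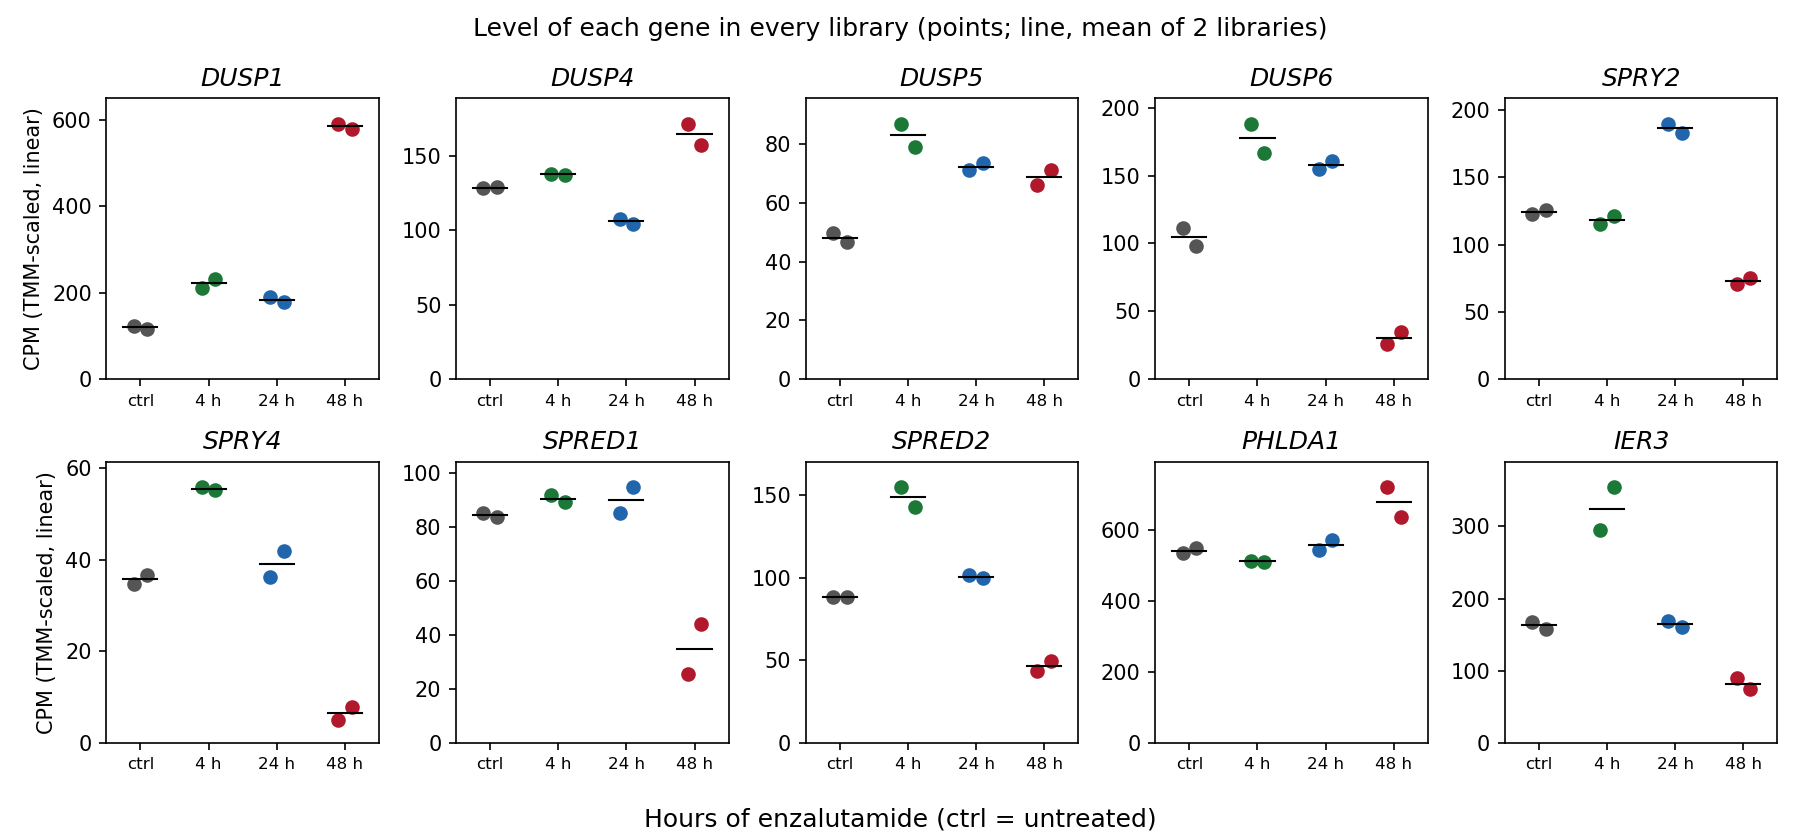
Level of each gene in every library, in CPM scaled by TMM factors, on a linear axis that starts at 0, for control (ctrl), 4, 24 and 48 h; each point is a library and each line the mean of 2. DUSP1 stood at 591 and 578 CPM at 48 h, while DUSP6, SPRY2, SPRY4, SPRED1, SPRED2 and IER3 had their lowest libraries at 48 h.

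Among the 10 genes the largest rise and the largest falls against control were those of DUSP1 and of SPRY4 and DUSP6. The promoter windows of these 3 genes, 250 bases before to 50 after the annotated start, are shown to set them side by side. They are RefSeq sequences of build GRCh38.p14, for DUSP1 chr5:172771146-172771445, for DUSP6 chr12:89352452-89352751 and for SPRY4 chr5:142324198-142324497, all on the minus strand and printed 5′ to 3′ along the gene. Capitals mark TGACGTCA, the cAMP response element that CREB and ATF proteins can bind, and its shorter core TGACG, searched on both strands.
DUSP1: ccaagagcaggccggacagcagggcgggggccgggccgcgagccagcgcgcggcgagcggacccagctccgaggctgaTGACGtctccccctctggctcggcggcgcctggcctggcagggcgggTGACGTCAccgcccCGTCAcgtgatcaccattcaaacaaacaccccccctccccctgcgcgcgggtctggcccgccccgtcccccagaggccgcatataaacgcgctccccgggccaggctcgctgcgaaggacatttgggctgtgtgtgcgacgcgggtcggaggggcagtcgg
DUSP6: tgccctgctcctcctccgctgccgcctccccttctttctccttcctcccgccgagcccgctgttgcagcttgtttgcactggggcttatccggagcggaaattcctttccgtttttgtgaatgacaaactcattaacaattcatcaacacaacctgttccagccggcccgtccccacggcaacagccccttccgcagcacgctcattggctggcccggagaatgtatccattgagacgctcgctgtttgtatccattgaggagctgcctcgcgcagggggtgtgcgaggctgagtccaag
SPRY4: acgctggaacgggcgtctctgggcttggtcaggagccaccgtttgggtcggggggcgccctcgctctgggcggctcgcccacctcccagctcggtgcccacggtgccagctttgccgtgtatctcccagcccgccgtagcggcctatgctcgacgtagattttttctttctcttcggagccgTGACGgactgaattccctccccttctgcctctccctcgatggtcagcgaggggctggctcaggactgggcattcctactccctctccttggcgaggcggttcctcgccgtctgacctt
The DUSP1 window holds TGACGTCA with its first base at position -125 from the start site. The core TGACG occurs 4 times in that window, at -172, -125, -122 and -111, of which those at -125 and -122 overlap within TGACGTCA. The SPRY4 window holds the core once, at -68, and these letters are not in the DUSP6 window. Over all 35116 RefSeq promoter windows of this length, 1.85% hold TGACGTCA and 24.6% hold the core. Windows were found for 7 of the 10 genes, 10 windows in all. Among the others, the core occurs once in windows of SPRY2, at -190, and SPRED2, at 30. The AP-1 motif TGANTCA, present in 7.71% of windows, occurs at -6 and 34 of the other SPRED2 window, and the ETS motif CCGGAAGT, present in 4.14%, in none of the 10. A match of letters is a description and shows no binding.

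DUSP1 encodes a nuclear phosphatase that is induced early by growth factors and by stress and acts most strongly on the stress-activated MAP kinases. Its level was 124 and 117 CPM in control, 211 and 232 CPM at 4 h, 191 and 178 CPM at 24 h, and 591 and 578 CPM at 48 h. Every treated library lay above both controls, and the 48 h libraries lay far above all others. DUSP1 was higher by 0.88 (SE 0.07, adjusted p = 8.08e-06) on the log2 scale at 4 h and by 0.61 (SE 0.07, adjusted p = 0.000114) at 24 h. At 48 h it averaged 585 ± 9.15 CPM, against 120 ± 4.93 CPM in control (SD, n = 2 libraries each), a 4.86-fold rise (log2 change 2.28, SE 0.07, adjusted p = 1.17e-09). Among all tested genes 4.39% had a larger absolute change at 48 h.

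DUSP4 encodes a nuclear phosphatase related to DUSP1 that acts on ERK and JNK. Its level was 129 CPM in each control library, 138 and 137 CPM at 4 h, 108 and 104 CPM at 24 h, and 172 and 157 CPM at 48 h. The 24 h libraries were the lowest of the 8 and the 48 h libraries the highest. The change at 4 h did not pass the test (log2 change 0.10, SE 0.06, adjusted p = 0.291). DUSP4 was lower at 24 h (log2 change -0.28, SE 0.06, adjusted p = 0.00935), but this call rested on each of the 4 libraries compared, since it was lost when control replicate 1, control replicate 2, 24 h replicate 1 or 24 h replicate 2 was left out (adjusted p = 0.0639, 0.0585, 0.0589 and 0.101). DUSP4 was higher at 48 h (log2 change 0.35, SE 0.06, adjusted p = 0.000448), and with library totals as the only scaling this change was 0.07 (adjusted p = 0.289). 

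DUSP5 encodes a nuclear phosphatase that is selective for ERK. Its level was 49.7 and 46.7 CPM in control, 87.1 and 79.1 CPM at 4 h, 71.2 and 73.5 CPM at 24 h, and 66.2 and 71.4 CPM at 48 h. All 6 treated libraries lay above both controls, and the 24 h and 48 h libraries overlapped. The log2 change was 0.78 (SE 0.08, adjusted p = 3.4e-05) at 4 h, 0.59 (SE 0.08, adjusted p = 0.000332) at 24 h and 0.51 (SE 0.08, adjusted p = 0.000115) at 48 h. DUSP1 and DUSP5 were the members called higher at all 3 times, and DUSP5 stayed called at each time under all alternatives tried, library totals included.

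DUSP6 encodes the cytoplasmic phosphatase that is selective for ERK and is widely used as a transcript of ERK activity. Its level was 111 and 98.1 CPM in control, 188 and 167 CPM at 4 h, 155 and 161 CPM at 24 h, and 25.8 and 34.8 CPM at 48 h. The 4 h and 24 h libraries lay above both controls and the 48 h libraries below all others. DUSP6 was higher by 0.76 (SE 0.12, adjusted p = 0.000645) at 4 h and by 0.59 (SE 0.11, adjusted p = 0.00412) at 24 h on the log2 scale; the 24 h call was lost without control replicate 2 (log2 change 0.50, adjusted p = 0.0537). At 48 h it averaged 30.3 ± 6.34 CPM, against 105 ± 9.38 CPM in control (SD, n = 2 libraries each), 3.46-fold lower (log2 change -1.79, SE 0.12, adjusted p = 2.84e-07). Exons of DUSP6 overlap an antisense gene, AC024909.2, in the GENCODE 29 annotation of GRCh38, and whether the counting used strand is not given in the sources used here, so reads of the antisense gene cannot be told apart.

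DUSP1 and DUSP6 thus parted at 48 h. Within a library the ratio of their counts, which no scaling of libraries can change, was 1.11 and 1.19 in the control libraries, 1.12 and 1.39 in the 4 h libraries, 1.23 and 1.11 in the 24 h libraries and 22.9 and 16.6 in the 48 h libraries. The ratio of the 48 h libraries lay above all others, while those of control, 4 h and 24 h overlapped. DUSP1 took 69.1% and 68.7% of the counts of the 4 phosphatase genes at 48 h, against 29.9% in each control library, and DUSP6 took 3.02% and 4.13% at 48 h, against 26.9% and 25.1% in control. The ratio itself depends on transcript length, so only its change between libraries is read, and no test of the ratio was made.

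**Figure D2:**
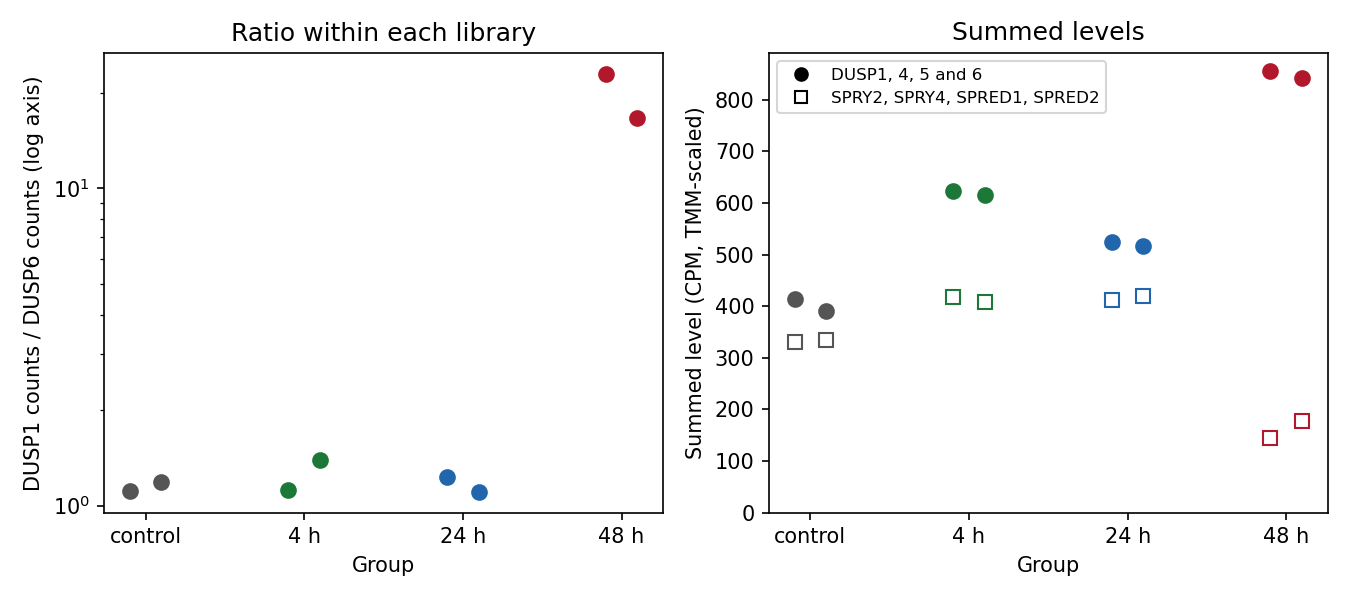
Left, DUSP1 counts divided by DUSP6 counts in each library, on a log axis; right, summed level in CPM (TMM-scaled, linear axis from 0) of the 4 phosphatase genes (filled circles) and of SPRY2, SPRY4, SPRED1 and SPRED2 (open squares), for control, 4, 24 and 48 h with 1 point per library. The ratio is 16.6 or more at 48 h and 1.39 or less elsewhere. The phosphatase sums are 855 and 842 CPM at 48 h, of which DUSP1 makes up 591 and 578 CPM, and 414 and 391 CPM in control. The Sprouty and SPRED sums are 145 and 177 CPM at 48 h, against 331 and 334 CPM in control.

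SPRY2 and SPRY4 encode Sprouty proteins, which are phosphorylated after receptor activation and dampen signalling to RAS and RAF. SPRY2 stood at 123 and 126 CPM in control, 115 and 121 CPM at 4 h, 190 and 183 CPM at 24 h, and 70.8 and 75.2 CPM at 48 h. Its 24 h libraries were the highest and its 48 h libraries the lowest, and the 4 h libraries lay just below the controls. The change at 4 h did not pass the test (log2 change -0.07, SE 0.06, adjusted p = 0.441). SPRY2 was higher at 24 h (log2 change 0.58, SE 0.06, adjusted p = 9e-05) and 1.70-fold lower at 48 h (log2 change -0.77, SE 0.06, adjusted p = 1.3e-06).

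SPRY4 stood at 34.7 and 36.8 CPM in control, 55.8 and 55.2 CPM at 4 h, 36.2 and 42.0 CPM at 24 h, and 5.10 and 7.77 CPM at 48 h, the last resting on 150 and 226 counts. The 4 h libraries were the highest, the 24 h libraries overlapped the controls, and the 48 h libraries were far below all others. SPRY4 was higher at 4 h (log2 change 0.64, SE 0.13, adjusted p = 0.00373) and did not pass the test at 24 h (log2 change 0.13, SE 0.13, adjusted p = 0.522). At 48 h it averaged 6.44 ± 1.88 CPM, against 35.7 ± 1.45 CPM in control (SD, n = 2 libraries each), 5.55-fold lower (log2 change -2.47, SE 0.15, adjusted p = 1.2e-07), and 3.37% of tested genes had a larger absolute change. The SPRY2 to SPRY4 count ratio within a library was 3.54 and 3.42 in the control libraries, 2.06 and 2.20 in the 4 h libraries, 5.25 and 4.35 in the 24 h libraries and 13.9 and 9.68 in the 48 h libraries, with no overlap between groups.

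SPRED1 and SPRED2 encode Sprouty-related membrane proteins, and SPRED1 is known to bring neurofibromin to RAS. SPRED1 stood at 85.2 and 83.6 CPM in control, 91.9 and 89.1 CPM at 4 h, 85.0 and 94.7 CPM at 24 h, and 25.5 and 44.2 CPM at 48 h. Its levels at 4 h and 24 h were close to control, the 24 h libraries overlapping it, and did not pass the test (log2 change 0.10, SE 0.17, adjusted p = 0.706 at 4 h, and 0.09, SE 0.17, adjusted p = 0.763 at 24 h). It was lower at 48 h (log2 change -1.28, SE 0.18, adjusted p = 7.34e-05). The 48 h libraries differed from each other more than any other group did for this gene, and the change was -0.93 without 48 h replicate 1 and -1.72 without 48 h replicate 2, called in each case.

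SPRED2 stood at 88.3 and 88.4 CPM in control, 155 and 143 CPM at 4 h, 102 and 99.6 CPM at 24 h, and 43.9 and 49.6 CPM at 48 h. The groups did not overlap, with 4 h the highest and 48 h the lowest. It was 1.68-fold higher at 4 h (log2 change 0.75, SE 0.07, adjusted p = 3.64e-05) and 1.89-fold lower at 48 h (log2 change -0.92, SE 0.08, adjusted p = 1.14e-06). At 24 h the change was 0.19 (SE 0.07, adjusted p = 0.0925), which passed the threshold when 48 h replicate 1 or 48 h replicate 2 was left out (adjusted p = 0.0129 in each case) or when only control and 24 h were fitted (adjusted p = 0.0233). The summed level of the 4 Sprouty and SPRED genes was 331 and 334 CPM in control, 417 and 408 CPM at 4 h, 413 and 419 CPM at 24 h, and 145 and 177 CPM at 48 h.

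IER3 encodes an immediate early protein that ERK phosphorylates and that has been described to prolong ERK phosphorylation, so it is a feedback gene of the pathway without being a plain inhibitor. It stood at 168 and 158 CPM in control, 295 and 354 CPM at 4 h, 169 and 160 CPM at 24 h, and 89.7 and 74.3 CPM at 48 h. The 4 h libraries were the highest, the 24 h libraries overlapped the controls and the 48 h libraries were the lowest. IER3 was 1.99-fold higher at 4 h (log2 change 0.99, SE 0.10, adjusted p = 4.25e-05), the largest change at that time among the 10 genes in the test over all libraries, and 1.99-fold lower at 48 h (log2 change -0.99, SE 0.10, adjusted p = 6.27e-06). At 24 h the change was 0.01 (SE 0.10, adjusted p = 0.951). The antisense gene IER3-AS1 overlaps its exons in the same annotation.

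PHLDA1 encodes a pleckstrin homology-like protein that is induced with the early growth factor response. It stood at 536 and 550 CPM in control, 514 and 512 CPM at 4 h, 543 and 572 CPM at 24 h, and 722 and 638 CPM at 48 h. The 48 h libraries lay above both controls, the 4 h libraries below both, and the 24 h libraries overlapped them. The changes at 4 h (log2 change -0.08, SE 0.07, adjusted p = 0.397) and 24 h (0.04, SE 0.07, adjusted p = 0.745) did not pass the test. The rise at 48 h was small (log2 change 0.32, SE 0.07, adjusted p = 0.00121), and with library totals as the only scaling it was 0.04 (adjusted p = 0.532). The antisense genes AC011611.3 and AC011611.4 overlap PHLDA1 exons in the same annotation.

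**Figure D3:**
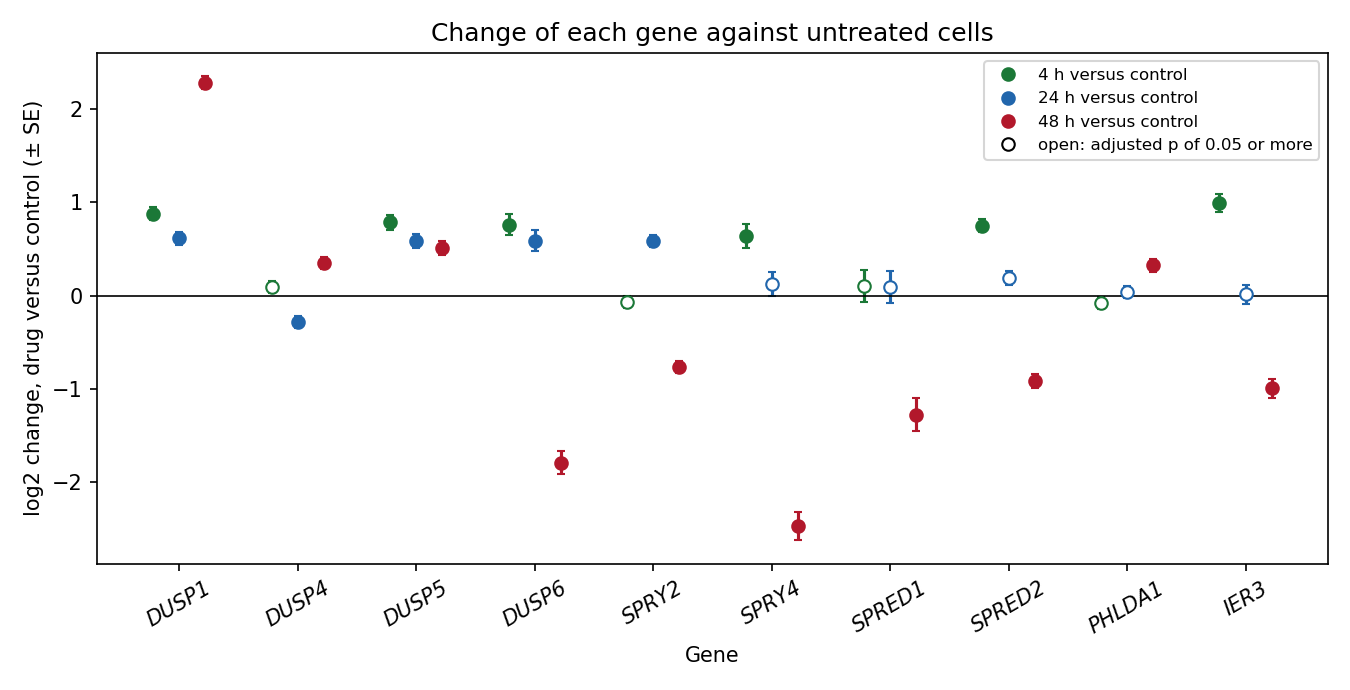
Log2 change of each gene at 4, 24 and 48 h against control, with bars of 1 SE from edgeR's fit of all 8 libraries; open points had an adjusted p of 0.05 or more. The points range from -2.47 for SPRY4 to 2.28 for DUSP1, both at 48 h, while at 4 h they lie between -0.08 and 0.99.

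Scaling bears most on the 48 h comparison. Library totals alone moved the median log2 change of all tested genes at 48 h to -0.30, against -0.02 with TMM factors, and the share of called genes that were higher to 29%, against 49.8%. Under that scaling 2742 of the 14448 tested genes were higher at 48 h and 6729 lower. Of the 10 genes 2, DUSP1 and DUSP5, were higher at 48 h under that scaling and the same number as before, 6, lower. For the 4 h comparison the share of called genes that were higher was 38.2% with library totals, against 52.4%, and the 10 genes still gave 6 higher and none lower. At 24 h the shares were 41.4% and 57.9%, and the 10 genes gave 4 higher and 1 lower under both. Over all tested genes library totals gave 1651 higher and 2667 lower at 4 h, and 1359 and 1920 at 24 h.

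Levels of different genes were compared per kilobase of exon, using GENCODE 29 exon lengths of 1356 to 8069 bases. In control the order of mean CPM per kilobase was IER3 (120), PHLDA1 (67.3), DUSP1 (59.6), SPRY2 (40.9), DUSP6 (23.1), SPRED2 (21.3), DUSP5 (18.9), DUSP4 (17.8), SPRED1 (10.9) and SPRY4 (7.18). No neighbours in that order overlapped in control; the closest were DUSP6, at 24.5 and 21.6, and SPRED2, at 21.2 and 21.3 CPM per kilobase. At 48 h the order was DUSP1 (290), PHLDA1 (84.3), IER3 (60.5), DUSP5 (26.9), SPRY2 (24.0), DUSP4 (22.7), SPRED2 (11.2), DUSP6 (6.66), SPRED1 (4.48) and SPRY4 (1.29). The libraries of SPRY2 and DUSP4 overlapped there, as did those of DUSP6 and SPRED1. DUSP1 headed the order at 48 h but not in control, and SPRY4 came last in each. The lengths join the exons of all protein-coding transcripts of a gene that carry the basic tag, whichever of them the cells use. The annotation used for counting is not given, so the order is approximate.

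Between times, 24 h against 4 h gave 1 of the 10 genes higher (SPRY2) and 5 lower, with 41.5% of all genes called (21.2% higher, 20.3% lower). The comparison of 48 h with 24 h gave 3 higher (DUSP1, DUSP4 and PHLDA1) and 6 lower, with 66.8% of all genes called (31.5% higher, 35.3% lower). That of 48 h with 4 h gave the same 3 genes higher and 7 lower, with 69.5% of all genes called (34.5% higher, 35.0% lower). DUSP5, the gene not called between 48 h and 24 h, differed by -0.07 (SE 0.08, adjusted p = 0.407), and was called lower with library totals as the only scaling (-0.29, adjusted p = 0.00651). The 4 genes not called between 24 h and 4 h were DUSP5, DUSP6, SPRED1 and PHLDA1. Of these, DUSP5 lay close to the threshold (log2 change -0.20, SE 0.07, adjusted p = 0.054) and was called lower in 9 of the 18 alternatives, DUSP6 was called lower in 3 and PHLDA1 higher in 3, and SPRED1 was called in none, with adjusted p of 0.65 or more. Libraries did not overlap for 9 of 10 genes between 24 h and 4 h (75.8% of all tested genes), 9 of 10 between 48 h and 24 h (82.3%) and 10 of 10 between 48 h and 4 h (82.9%).

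Other genes of the pathway, from lists chosen by role, are given beside these. Among 12 other dual-specificity phosphatases and relatives 11 were tested; 4 were higher and 2 lower at 4 h, none higher and 2 lower at 24 h, and 3 higher and 5 lower at 48 h, with medians of 0.08, -0.02 and 0.07. DUSP10, a phosphatase of the stress-activated MAP kinases, had a mean of 179 CPM at 48 h, against 34.1 CPM in control (log2 change 2.39, SE 0.07, adjusted p = 1.17e-09). It was also higher at 4 h (0.74, SE 0.07, adjusted p = 4.07e-05). DUSP10 was lower at 24 h (-0.23, SE 0.07, adjusted p = 0.0489), a call close to the threshold. How calls of list genes depend on single libraries is not given here. DUSP16, a JNK phosphatase, was lower at 48 h (-1.05, SE 0.08), and so was DUSP19 (-3.23, SE 0.27), with 0.428 CPM at 48 h, against 4.04 CPM in control. DUSP7, the closest relative of DUSP6 with the same preference for ERK, was higher at 4 h (0.48, SE 0.11, adjusted p = 0.00779) and lower at 48 h (-1.11, SE 0.12, adjusted p = 6.64e-06); its 48 h value was chosen after it was seen. DUSP3 was higher at 4 h (0.38, SE 0.06) and DUSP14 lower at 24 h (-0.27, SE 0.09, adjusted p = 0.0482), the latter also close to the threshold. With library totals alone the counts were 3 and 2, 0 and 2, and 1 and 5, and the 48 h median was -0.21.

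Of 20 further genes listed as feedback genes or regulators, at the level of receptors, RAS, RAF or MEK, 19 were tested. At 4 h 7 were higher and 2 lower, at 24 h 4 and 1, and at 48 h 7 and 9 (medians 0.10, 0.04 and -0.16; library totals alone gave 6 and 2, 4 and 2, and 6 and 9). TRIB1, a pseudokinase that binds MEK, was higher at 4 h (1.35, SE 0.09, adjusted p = 1.93e-06) and at 48 h (1.37, SE 0.09, adjusted p = 1.5e-07). Its rise at 24 h was smaller (0.43, SE 0.09, adjusted p = 0.00547). The adaptor gene SH2B3 was higher at 4 h (0.56, SE 0.06) and 24 h (0.63, SE 0.06) and lower at 48 h (-0.39, SE 0.06). The RAS GTPase-activating gene RASA3 was higher at 4 h (0.68, SE 0.06) and lower at 48 h (-0.16, SE 0.06). LRIG1, which restrains receptor tyrosine kinases, was lower at 24 h (-0.40, SE 0.07) and 48 h (-1.25, SE 0.07). SOCS3, an inhibitor of cytokine receptor signalling, averaged 10.6 CPM at 48 h, against 90.6 CPM in control (-3.09, SE 0.13, adjusted p = 7.41e-09). At 4 h SOCS3 was higher (0.50, SE 0.11). SPSB1 was higher at 4 h (0.76, SE 0.09), 24 h (0.46, SE 0.09) and 48 h (0.88, SE 0.09).

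Of the 25 core genes of the RAS to ERK route, all tested, 3 were higher and 1 lower at 4 h, 3 higher and 2 lower at 24 h, and 9 higher and 10 lower at 48 h (medians -0.07, 0.11 and -0.02). MAP2K1, which encodes a MEK kinase, was higher at 4 h (0.26, SE 0.06, adjusted p = 0.00794), and BRAF at 48 h, with 42.9 CPM at 48 h, against 14.2 CPM in control (1.59, SE 0.09, adjusted p = 8.23e-08). ARAF was higher (0.87, SE 0.07) and SOS2, an activator of RAS, lower (-1.49, SE 0.13) at 48 h. RPS6KA2, an ERK-activated kinase, was lower at 24 h (-0.60, SE 0.06) and RPS6KA1 higher (0.45, SE 0.07). MRAS (0.36, SE 0.08) and KSR2 (2.16, SE 0.38) were higher at 4 h, KSR2 with 1.21 CPM at 4 h, against 0.271 CPM in control. Library totals alone gave 3 and 3, 1 and 2, and 5 and 12.

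Of 18 symbols listed for the JNK branch and the other stress-activated branch, 17 were in the files and 15 tested; 2 were higher and 5 lower at 4 h, 3 and none at 24 h, and 4 and 7 at 48 h (medians -0.19, 0.02 and -0.01; library totals alone gave 2 and 7, 2 and none, and 2 and 9). MAP2K3, a kinase of the stress-activated branch, was higher at 4 h (0.90, SE 0.07, adjusted p = 4.71e-06), and MAPK8 and MAPK9, which encode JNK kinases, at 24 h (0.35, SE 0.11, and 0.30, SE 0.07). At 48 h MAP2K4 was lower (-1.16, SE 0.09) and MAP2K7 higher (0.69, SE 0.07), and each encodes a kinase that activates JNK. MAPKAPK3 was lower at 4 h (-0.44, SE 0.06) and higher at 24 h (0.26, SE 0.06), and ZAK was lower at 4 h (-0.31, SE 0.07) and 48 h (-0.62, SE 0.07).

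Transcripts commonly read as ERK output, the 10 genes left out, were 16, all tested. At 4 h 10 were higher and 3 lower, at 24 h 6 and none, and at 48 h 4 and 11, with median log2 changes of 0.53, 0.09 and -0.91, against -0.004, 0.01 and -0.02 over all tested genes. IL11 and LIF, which encode cytokines, were higher at 4 h (3.00, SE 0.11, and 1.92, SE 0.08), and LIF also at 24 h (0.64, SE 0.07). EPHA2 (1.04, SE 0.08) and EGR1 (1.11, SE 0.12) were higher at 24 h. At 48 h HBEGF and EREG, which encode ligands of the EGF receptor family, were lower (-2.65, SE 0.10, and -1.69, SE 0.06), and MYC was higher (2.70, SE 0.07, adjusted p = 4.55e-10). ETV1, an ETS factor, was lower at 4 h (-1.14, SE 0.06) and 48 h (-1.01, SE 0.06). ETV5 was also lower at 4 h (-0.46, SE 0.07), and ETV4 (-0.04, SE 0.07) and FOSL1 (0.10, SE 0.07) were not called at 4 h. The output genes thus moved both ways at 48 h, with more of them lower than higher. For the output genes library totals alone gave 10 and 3, 5 and 1, and 3 and 12. The 10 genes also moved both ways at 48 h, 4 higher and 6 lower, with a median log2 change of -0.84.

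Of 24 growth factor receptors and ligands 15 were tested, and 4 were higher and 5 lower at 4 h, 4 higher and 1 lower at 24 h, and 2 higher and 9 lower at 48 h (medians 0.11, 0.03 and -0.69; library totals alone gave 4 and 5, 4 and 2, and 1 and 12). The ligand gene TGFA was higher at 24 h (0.40, SE 0.06) and lower at 48 h (-1.90, SE 0.07), and PDGFA (-1.57, SE 0.13) and the receptor gene PDGFRB (-0.97, SE 0.10) were lower at 48 h. MET (0.39, SE 0.08) and AXL (0.30, SE 0.06), which encode receptors, were higher at 24 h. At 4 h the ligand gene FGF2 was higher (0.65, SE 0.07) and HGF (-1.08, SE 0.08) and PDGFC (-0.60, SE 0.08) were lower.

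**Figure D4:**
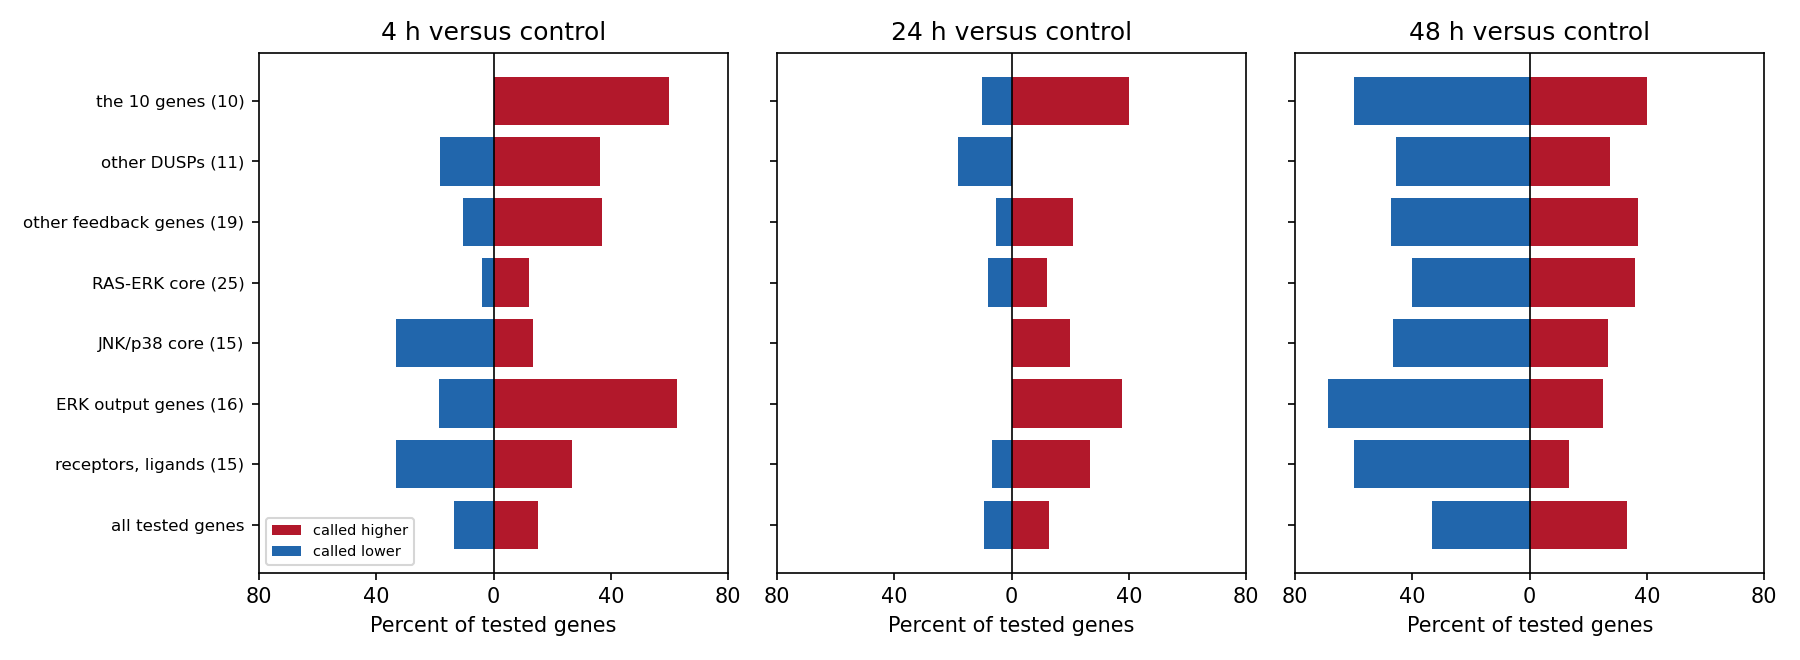
Percent of the tested genes of each list called higher (red, to the right of 0) and lower (blue, to the left of 0) at 4, 24 and 48 h against control, with the number tested in brackets and all tested genes in the bottom row. At 4 h the 10 genes have no bar to the left of 0, against 13.6% lower over all genes, and at 48 h bars reach both ways in every list shown.

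Genes with the most similar course were found among 10894 others of moderate or high level, by the Euclidean distance between log2 CPM profiles over the 8 libraries, each centred on its own mean so that the level itself does not count. The points share libraries and groups, so the correlations are descriptions. Nearest to DUSP1 were ZBTB2 (distance 0.42, Pearson's r 0.988) and FAM102A (0.47, r 0.982). Nearest to DUSP6 were CCDC71L (0.52, r 0.987) and RAPGEF6 (0.52, r 0.984), and to SPRY4 MOCS3 (0.32, r 0.996) and C2CD2 (0.36, r 0.995). For SPRY2 they were DDX46 (0.19, r 0.993) and BIRC2 (0.26, r 0.984), for SPRED1 RAB11FIP2 (0.16, r 0.997) and ZNF445 (0.20, r 0.995), for SPRED2 IFFO2 (0.20, r 0.996) and SIRPA (0.23, r 0.994), and for IER3 IFITM10 (0.29, r 0.990) and HILPDA (0.37, r 0.984). Among the 10 genes themselves the smallest distances were those of DUSP4 and PHLDA1 (0.52, r 0.603), SPRED2 and IER3 (0.60, r 0.960) and DUSP6 and SPRY4 (0.82, r 0.982). The group means of DUSP4 and PHLDA1 spanned only 0.63 and 0.40 on the log2 scale, which keeps any distance between them small. Their changes against control had opposite signs at 4 h (0.10 and -0.08) and 24 h (-0.28 and 0.04), and both were higher at 48 h (0.35 and 0.32).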

How the data were processed

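RNA-seq counts of 8 libraries in 4 groups were analysed. The authors deposited raw integer counts for each gene symbol, 1 file per library. Per the submitters' processing notes Bowtie was used, and hg19 and GRCh37 are named. How reads were counted (program, annotation, strand) is not given in the sources used here. Of the 23368 names listed, 28 had become dates; they stayed in the totals. Members and gene lists were chosen with earlier results of these data known. In R 4.3.3 with edgeR 4.0.16, filterByExpr kept 14448 genes, libraries were scaled by TMM factors, and all libraries entered 1 quasi-likelihood fit with a coefficient per group (4 residual degrees of freedom, biological coefficient of variation 7.15%). A gene was called where its p, adjusted by Benjamini-Hochberg over all tested genes, was below 0.05. Each SE is the size of the log2 change over the square root of F. Levels are CPM scaled by TMM factors. List genes named are up to 3 called genes with the smallest p per comparison with control, of which 1 is not reported here; MAP3K20 was listed under its older symbol ZAK. Similar courses were sought for members whose group means span over 1 on the log2 scale, using log2 CPM with a prior count of 2 and a mean of at least 2. Replicate libraries differed by more than sampling noise (chi-square per gene 4.50 to 20.8) and were counted separately. DESeq2 1.42.0, limma-voom (limma 3.58.1), other scalings and filters, a replicate block and libraries left out were alternatives. The steps were tested on simulated data.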

Additional observations from a re-analysis of the deposited data

Results flagged for a closer look

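Changes against control that differed between times, by the direct test of the later against the earlier time over all 14448 genes, are given as log2 differences. The comparisons share their libraries, so they are not independent of each other, and no explanation was weighed. DUSP6 was higher than control at 4 h and 24 h and lower at 48 h, with 48 h differing from 24 h by -2.38 and from 4 h by -2.55. SPRY4 was lower at 48 h than at 24 h (-2.60) and 4 h (-3.11), and lower at 24 h than at 4 h (-0.51). SPRY2 was higher at 24 h than at 4 h (0.66) and lower at 48 h than at 24 h (-1.35) and 4 h (-0.69). SPRED2 differed by -0.56 between 24 h and 4 h, -1.11 between 48 h and 24 h, and -1.67 between 48 h and 4 h. SPRED1 differed by -1.37 between 48 h and 24 h and by -1.38 between 48 h and 4 h. IER3 differed by -0.98 between 24 h and 4 h, by -1.0 between 48 h and 24 h, and by -1.98 between 48 h and 4 h. DUSP1 was lower at 24 h than at 4 h (-0.27) and higher at 48 h than at 24 h (1.67) and 4 h (1.40). DUSP4 was lower at 24 h than at 4 h (-0.38) and higher at 48 h than at 24 h (0.63) and 4 h (0.26). DUSP5 was lower at 48 h than at 4 h (-0.27). PHLDA1 was higher at 48 h than at 24 h (0.29) and 4 h (0.41). The 24 h against 4 h call of DUSP1 was lost without 4 h replicate 2 (-0.19, adjusted p = 0.112) or 24 h replicate 2 (-0.21, adjusted p = 0.11), and that of SPRY4 without 4 h replicate 1 (-0.50, adjusted p = 0.051) or 24 h replicate 1 (-0.40, adjusted p = 0.0969). The 48 h against 4 h call of DUSP5 was lost without 4 h replicate 1 (-0.20, adjusted p = 0.0922), and with library totals alone those of DUSP4 (0.04, adjusted p = 0.551) and, for 48 h against 24 h, PHLDA1 (0.07, adjusted p = 0.325) were lost.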

How the results depend on the processing

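With libraries left out in turn the number of genes lower at 24 h than in control ranged from 0 to 1, and that of genes higher at 24 h than at 4 h from 1 to 2; this second number was also 2 when only those groups were fitted. With library totals as the only scaling, 2 of the 10 genes were higher at 48 h than in control, beside 2742 of the 14448 tested genes. All other counts of the 10 genes stayed within 1.5 times under the alternatives run. Signs turned only for changes that passed no test. IER3 at 24 h was -0.016 with DESeq2 size factors, -0.051 with library totals, -0.016 with DESeq2, -0.0084 in the fit of the groups compared, -0.0067 without the 48 h libraries, and -0.030 to 0.056 with single libraries left out. PHLDA1 at 24 h was -0.025 with library totals. SPRED1 at 24 h against 4 h was 0.0098 without a filter, 0.0092 after thinning to 24620833 counts, and -0.088 to 0.068 with single libraries left out. For single genes, 545 of the other values kept direction and call, 13 gained and 4 lost the call; with libraries left out these were 459, 7 and 10, and the causes were not tested. Same-numbered libraries deviated together little (r -0.005 to 0.14), and the labels tie no number to a shared culture. Whether same-numbered libraries share a culture or a batch is therefore not known. With the replicate block the counts of the 10 genes at 48 h stayed 4 higher and 6 lower. DUSP5 at 24 h against 4 h gained the call with that block (-0.20, adjusted p = 0.0482). Over all tested genes the block raised those called at 24 h from 1866 higher and 1356 lower to 2169 and 1580. The lowest member count was 150 in any library, and precision is limited by 2 libraries per group.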
